A study of Sus scrofa domesticus with 4 samples.

Results

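Genes of vesicle trafficking and secretion were compared between the anterior pituitary of pregnant and cyclic pigs. Members were the probes whose transcript accession carries, in the pig RefSeq names, a symbol beginning with RAB, ARF or SEC and a digit, or with VAMP, STX, SNAP, SNX, COP, TMED, SYT, VPS or AP1 to AP3. This gave 44 genes of the 3029 that carried a RefSeq symbol on the array. The symbols alone decided membership, but the families were chosen with earlier results of these data known. A filter kept probes whose signal was well above background in 4 or more of 8 channels. It left 43 genes to test, on 106 of the 25203 probes kept in all. SEC24A, a cargo-binding subunit of the COPII coat, was not tested, since its 1 probe was well above background in 1 of 8 channels. Only 6700 of 43603 probes carried a RefSeq symbol, so genes of these families may also lie among the unnamed probes, which were not used here. No named probe was found for a VAMP, SNAP or SYT gene, for the COPI coat or for the AP1 and AP2 adaptors.

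The glands came from 8 mature Large White x Polish Landrace gilts, young female pigs, of which 4 were pregnant and 4 were cyclic, all on days 15 to 16. The pregnant animals were naturally bred and carried conceptuses, and the stage of the cyclic animals was judged from the ovaries. Each of 4 two-colour Agilent porcine arrays, which lay on 1 slide, compared 1 pregnant with 1 cyclic animal, which makes 4 independent pairs. By the label fields the pregnant animal was labelled with Cy3 on arrays 1 and 3 and with Cy5 on the other 2, whereas the labelling protocol's text describes Cy3 for pregnant RNA throughout. The label fields were followed, and the authors' deposited table of log2 ratios runs in that direction on all 4 arrays, at 43553 of 43553 probes within 0.001 of the scanner's processed ratio. With 1 orientation for all arrays, the fitted ratio of 26 of the 43 genes would change sign, and no dye effect could be fitted.

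Secreted and membrane proteins enter the endoplasmic reticulum through the Sec61 translocon, leave it in COPII-coated vesicles with the help of p24 cargo receptors, and are sorted at the Golgi by ARF GTPases and coat adaptors. Rab GTPases give each membrane its identity, and syntaxins and other SNARE proteins fuse vesicles with their targets. Hormone cells of the anterior pituitary store their products in dense-core granules, whose release uses RAB3 and RAB27 GTPases.

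Ratios below are log2 of pregnant over cyclic, and each fitted ratio is given ± its standard error from limma over 4 arrays, in a model that also estimates a dye effect for each gene. Intensities are normalized log2 values and are not compared between genes; the brightest of a gene's kept probes stands for it. The number of arrays limits the precision. The p-values and standard errors rest on the spread between pairs of animals within each dye orientation, with limma drawing each gene's variance toward that of all features. Spread between the orientations goes to the dye effect, so the p-values and standard errors do not hold it. Fits that leave out an array keep the dye effect. The remaining array of that orientation then weighs as much as the other arrays together. In whole glands, fewer cells of a type and less RNA per cell cannot be told apart.

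Across the 43 genes the pregnant and cyclic glands differed little. Fitted ratios ran from -0.45 for TMED3 to 0.40 for STX11, and 20 genes lay within 0.1 of 0 (46.5%, against 44.6% of all features). The median was -0.0072 for the members and -0.011 for all 22278 features tested, and 23 members (53.5%) lay below 0, against 52.8% of all features. None passed an adjusted p of 0.05 in limma with Benjamini-Hochberg adjustment (0 of 43, with adjusted p between 0.624 and 1.00), and neither did any other feature (0.00%), the smallest adjusted p of all being 0.123. At an unadjusted p under 0.05, 2 of 43 members passed (4.65%), against 1711 of all features (7.68%).

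A looser rule asked for an unadjusted limma p under 0.05 and a fold of at least 1.2. It took SEC61A1 and TMED3, both lower in the pregnant glands, which is 4.65% of the members beside 7.51% of all features and 8.43% of the 2409 genes with a symbol. On the lower side it took 2 members against 4.37% of all features, and on the higher side 0 members against 3.14%. Of the 43 members, 41 were well above background in all 8 channels. Their median standard error was 0.122, close to 0.118 for all features, and 5 members (11.6%) reached the 1.2-fold size, against 17.6% of all features. The share of trafficking genes called in this fit was thus no larger than the share of the array as a whole. It was larger with a single dye orientation, with normexp parameters from all spots and without array 4, with the counts given near the end.

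**Figure D1:**
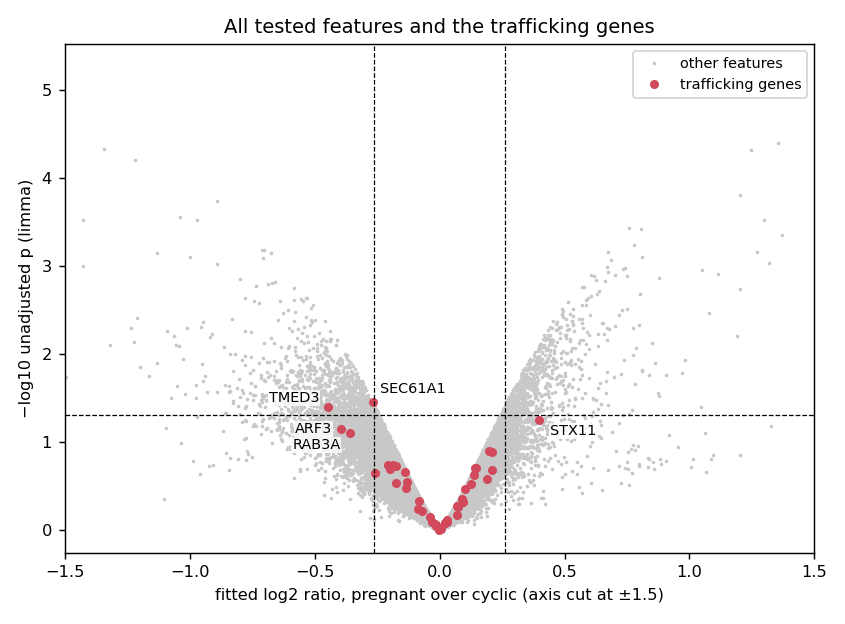
Each point is 1 tested feature, with its fitted log2 ratio of pregnant over cyclic on the x axis and the negative log10 of its unadjusted limma p on the y axis; red points are the 43 trafficking genes, grey points the other features, and dashed lines mark a p of 0.05 and a fold of 1.2. SEC61A1 and TMED3 lie above both lines on the lower side, STX11 lies just under the p line on the higher side, and 12 features beyond 1.5 in size, none of them a trafficking gene, are not drawn.

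Entry into the endoplasmic reticulum was represented by SEC61A1 and SEC62. SEC61A1 encodes the pore-forming subunit of the translocon, and its 1 probe read -0.34, -0.20, -0.32 and -0.21 on arrays 1 to 4. The pregnant animal was the lower one on every array, and this was the most even lower ratio among the 4 members that were below 0 throughout, with an SD over arrays of 0.0725. In the single animals its log2 intensity was 7.33, 7.58, 7.53 and 7.69 in pregnant and 7.67, 7.78, 7.85 and 7.90 in cyclic glands of arrays 1 to 4. The groups touched at 1 point, the pregnant animal of array 4 lying just above the cyclic animal of array 1. The fitted ratio was -0.27 ± 0.10 (limma, unadjusted p = 0.0355, adjusted p = 0.624). In size it was just past the 1.2-fold bound, which is 0.263 on the log2 scale. Without any 1 array it stayed between -0.27 and -0.26, but it passed the looser rule in 0 of these 4 fits, with p between 0.0926 and 0.145. With normexp parameters from all spots it was -0.13, short of that bound. Under that setting the estimated background spread was 1071 for Cy5 and 1770 for Cy3 on array 2, and 6439 for Cy5 on array 4. In the fit used here it was 1.17 to 2.51 over all channels, so ratios under that setting are read with caution throughout.

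SEC62, a translocon partner that also helps import small precursors after their synthesis, read -0.01, 0.18, 0.00 and -0.09 and was fitted at 0.02 ± 0.10. Its 4 other probes ran from -0.05 to 0.35. The highest of them read 0.32, 1.05, -0.03 and 0.05, with array 2 far above the rest.

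Export from the endoplasmic reticulum was represented by SEC23B, and the SEC symbols also take SEC14L2, a lipid-binding protein outside the coat. SEC23B, the COPII subunit that stimulates GTP hydrolysis by SAR1, read 0.19, 0.03, -0.01 and -0.11 and was fitted at 0.02 ± 0.10. Its 4 other probes lay between -0.22 and 0.08, and only 1 of them was on the same side of 0. SEC14L2 read 0.04, -0.19, -0.14 and -0.26, with a fit of -0.14 ± 0.10. Neither passed the looser rule.

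The p24 family, transmembrane receptors that cycle between the endoplasmic reticulum and the Golgi, held the lowest member ratio. TMED3 read -0.12, -1.26, -0.03 and -0.38 on arrays 1 to 4. All 4 ratios were below 0, but array 2 was far lower than the others and arrays 1 and 3 were close to 0. Log2 intensity was 13.40, 12.22, 12.90 and 12.56 in the pregnant and 13.52, 13.48, 12.93 and 12.94 in the cyclic animals, so the groups overlapped. The fit was -0.45 ± 0.17, a 1.36-fold lower level (limma, unadjusted p = 0.0408, adjusted p = 0.624). Without array 2 it was -0.22 and no longer passed the looser rule. It was also lost without array 1, at -0.42, and without array 3, at -0.47, and it was kept without array 4, at -0.67.

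The 3 probes of TMED3 measured the same pattern. On array 2 they read -1.26, -1.23 and -1.32, and their fitted ratios were -0.45, -0.43 and -0.40. The 2 dimmer probes were slightly above 0 on array 1, at 0.05 and 0.20, so the single sign on 4 arrays belongs to the brightest probe alone.

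TMED10, a p24 protein needed for the assembly of the family's complexes, had 12 probes. Its brightest read -0.03, 0.23, 0.32 and -0.15, with a fit of 0.09 ± 0.12. A further 10 probes also lay between -0.07 and 0.09, with array 3 above 0 and array 4 below 0 on all 11. The remaining probe read 1.41, 0.11, -1.04 and 1.19 and was fitted at 0.42 ± 0.41, apart from the other 11 on arrays 1, 3 and 4. The 2 p24 genes thus differed in the sign of their fitted ratio, and the difference between them was not tested.

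**Figure D2:**
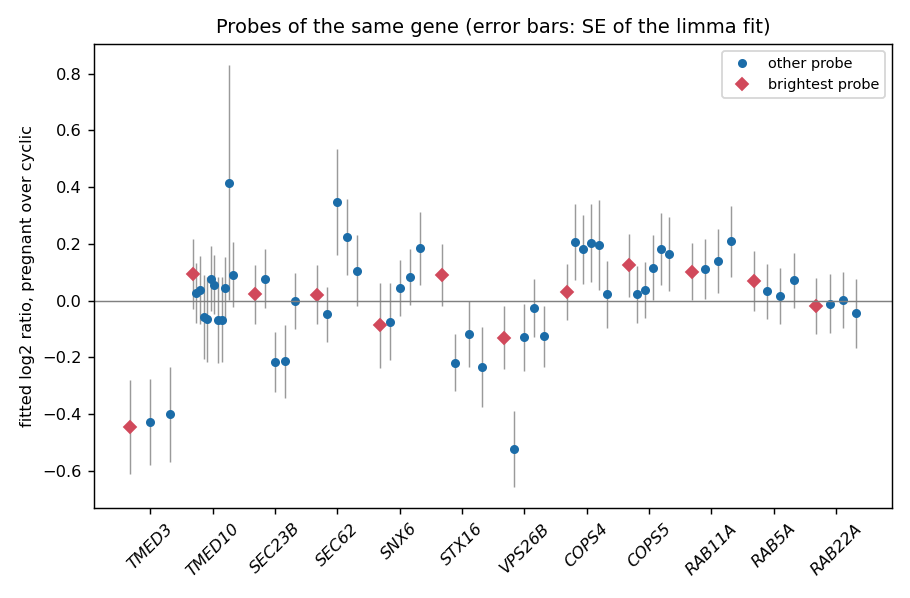
Fitted log2 ratios of pregnant over cyclic on the y axis for every kept probe of 12 genes on the x axis, ordered by intensity within a gene; diamonds mark the brightest probe, which stands for the gene, and bars are standard errors from limma. The 3 TMED3 probes lie together between -0.45 and -0.40, whereas 1 TMED10 probe at 0.42 and 1 VPS26B probe at -0.52 stand apart from the other probes of their genes.

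The ARF GTPases recruit coats to Golgi and endosomal membranes. Of 6 tested, 4 lay below 0 and 2 above, from -0.40 to 0.21, and none passed the looser rule. ARF3, a Golgi ARF, read -0.23, -1.09, -0.14 and -0.12. All arrays were below 0, with array 2 far below the rest. The fit was -0.40 ± 0.18 (limma, unadjusted p = 0.0722), and it was -0.15 without array 2. Without array 4 it was -0.64 and passed the looser rule, in a fit where array 2 weighs as much as arrays 1 and 3 together.

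ARF4, which acts early in the secretory route, read 0.19, 0.19, 0.13 and 0.06, above 0 on all arrays and with the smallest range of any member, 0.133. Its log2 intensity was 15.17, 15.04, 15.22 and 15.39 in the pregnant and 14.99, 14.85, 15.08 and 15.33 in the cyclic animals, and the groups overlapped widely. The fit was 0.14 ± 0.10, and its 2 other probes stood at 0.14 and 0.15. With normexp parameters from all spots, the setting of very wide background estimates, it was 0.29 and passed the looser rule (limma, unadjusted p = 0.0408). ARF5, the other ARF of the same class, read 0.30, -0.72, 0.08 and -0.36, with the 2 arrays of each dye orientation on the same side of 0 and a fit of -0.17 ± 0.12. Among the rest, ARF1 was at -0.18 ± 0.12, ARF2 at 0.21 ± 0.15 and ARF6, which works at the plasma membrane, at -0.0072 ± 0.14.

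The AP3 adaptor carries cargo toward lysosomes and related organelles. AP3M1, its mu subunit, read 0.34, 0.06, -0.10 and -0.18, and AP3S2, a sigma subunit, read -0.14, -0.01, -0.04 and 0.13. Both scattered about 0, with fits of 0.03 ± 0.12 and -0.01 ± 0.10. AP3B1, the beta subunit, was fitted at -0.01 ± 0.12. The 3 subunits of this complex showed no called difference.

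The Rab GTPases were the largest family, with 16 genes tested on 28 probes. Fitted ratios ran from -0.36 to 0.21, with 9 genes below 0 and 7 above, a median of -0.04 and 0 genes past the looser rule. RAB3A and RAB10 were the only members of the family with 1 sign on all arrays, in opposite directions.

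RAB3A and RAB27A are the Rabs of regulated exocytosis found here, and their fitted ratios had opposite signs, a difference that was not tested. RAB3A, which sits on secretory granules, read -0.17, -0.89, -0.35 and -0.02. The pregnant animal was the lower one on every array, most of all on array 2 and hardly at all on array 4. Log2 intensity was 8.62, 8.31, 8.79 and 9.13 in the pregnant and 8.79, 9.21, 9.14 and 9.15 in the cyclic animals, and the groups overlapped at the top of the pregnant range. The fit was -0.36 ± 0.17, a 1.28-fold lower level that did not pass the looser rule (limma, unadjusted p = 0.0788). It was -0.14 without array 2 and -0.58 without array 4, where it did pass, and it was -0.17 with normexp parameters from all spots.

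RAB27A, which docks granules at the plasma membrane, read -0.10, 0.70, -0.17 and -0.16. Array 2 alone was above 0, and the other 3 arrays lay close together below it. The fit was 0.07 ± 0.16. A second probe gave 0.69 on array 2, with 0.28, -0.14 and -0.16 on the others, so array 2 was high for both probes and low for RAB3A.

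**Figure D3:**
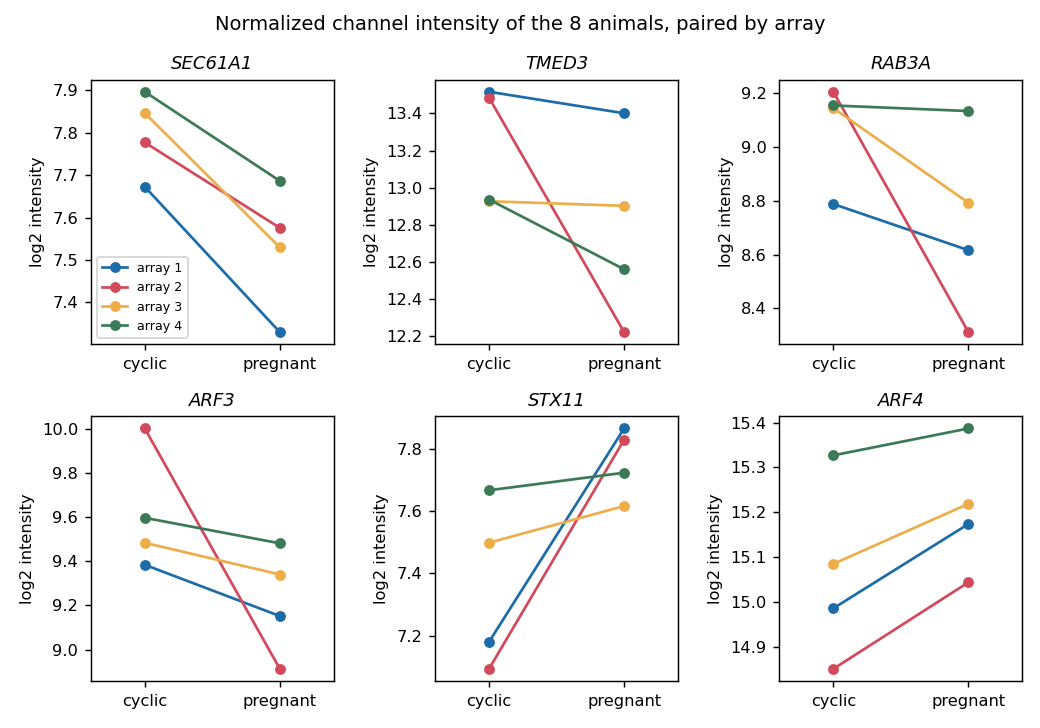
Normalized log2 intensity (y axis) of the cyclic and pregnant animal (x axis) of each array for 6 genes, with a line joining the 2 animals of an array and a y axis of its own for each gene. SEC61A1 is lower in the pregnant animal by a similar amount on 4 of 4 arrays, TMED3, RAB3A and ARF3 have their steepest lines on array 2, STX11 on arrays 1 and 2, and ARF4 is slightly higher in the pregnant animal on each.

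RAB1A and RAB1B act in transport from the endoplasmic reticulum to the Golgi. RAB1A read 0.17, 0.66, 0.07 and -0.13, and RAB1B read 0.20, -0.86, 0.09 and -0.23. The pair matched on arrays 1, 3 and 4 in sign and stood on opposite sides on array 2. Their fits were 0.19 ± 0.15 and -0.20 ± 0.14. Without array 2 these were -0.0056 and -0.04, and without array 4 they were 0.39 and -0.36, both past the looser rule.

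The endosomal Rabs also came as pairs, and no difference between paralogs was tested. RAB5A, of early endosomes, read 0.25, 0.07, 0.11 and -0.16 (fit 0.07 ± 0.10), and its 3 other probes lay between 0.02 and 0.07. RAB5C, its close paralog, read 0.04, -1.07, -0.02 and 0.01. Apart from array 2, RAB5C was at 0, and its fit moved from -0.26 ± 0.19 to 0.0095 without that array. Without array 4, which leaves array 2 alone in its dye orientation, it was -0.53 and passed the looser rule. RAB11A and RAB11B, of recycling endosomes, were fitted at 0.10 ± 0.10 and -0.17 ± 0.15, with opposite signs on all 4 arrays. RAB11B read -0.86 on array 2, and its fit was 0.02 without that array and -0.36, past the looser rule, without array 4. Near-identical copies within these pairs can share hybridisation, which was not tested.

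RAB10, a Rab of exocytic and recycling routes, read 0.22, 0.24, 0.01 and 0.08, above 0 throughout but near 0 on array 3, with a fit of 0.14 ± 0.10. RAB33A, a Golgi Rab, had the second widest range over arrays, 1.14, with values of -0.28, 0.38, -0.76 and 0.12 that followed the dye orientation. It was well above background in 2 pregnant and 3 cyclic channels, and its fit was -0.13 ± 0.13. The other 6 Rabs, RAB14, RAB22A, RAB28, RAB32, RAB34 and RAB35, were fitted between -0.21 and 0.21. RAB35 passed the looser rule without array 4, at -0.36.

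Syntaxins are target-membrane SNAREs. The 4 genes tested split evenly about 0, with none past the looser rule. STX11, a SNARE of granule release in cytotoxic lymphocytes, was the highest member and read 0.69, 0.74, 0.12 and 0.06. All arrays were above 0, with arrays 1 and 2 far above arrays 3 and 4. Log2 intensity was 7.86, 7.83, 7.62 and 7.72 in the pregnant and 7.18, 7.09, 7.50 and 7.67 in the cyclic animals. The spread was thus mainly in the cyclic group, and the groups overlapped by the pregnant animal of array 3 alone. The fit was 0.40 ± 0.17, a 1.32-fold higher level (limma, unadjusted p = 0.0572, adjusted p = 0.624). It passed the looser rule without array 3, at 0.54, without array 4, at 0.57, with a normexp offset of 10, at 0.52, and with no dye term, at 0.40. It was 0.26 without array 1, 0.23 without array 2, 0.67 with the scanner software's processed signals and 0.14 with normexp parameters from all spots. CD14, the 1 tested gene of 4 immune markers, read 0.28, 0.16, -0.42 and -0.60 on the same arrays, also higher on arrays 1 and 2. Its fitted ratio was -0.15 ± 0.18. Of the endothelial markers, CDH5 read 0.63, 1.41, -0.06 and 0.06, whereas VWF and PECAM1 were fitted below 0. The part of either cell type in the STX11 ratio was not tested.

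STX16, of the trans-Golgi network, read -0.01, 0.37, -0.03 and 0.04, with a fit of 0.09 ± 0.11. Its 3 other probes were all on the other side of 0, from -0.23 to -0.12, so its direction depended on the probe. STX12, an endosomal syntaxin, read 0.09, -0.17, -0.10 and 0.02 (fit -0.04 ± 0.10), and STXBP6, a syntaxin-binding protein, was fitted at -0.03 ± 0.14.

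Genes of the endosomal and lysosomal route followed no common direction. SNX6, a sorting nexin that works with the retromer, read -0.45, -0.26, 0.02 and 0.34, with a fit of -0.09 ± 0.15. Only 1 of its 4 other probes had that sign. VPS26B, a retromer subunit, read 0.15, -0.46, -0.06 and -0.16 (fit -0.13 ± 0.11). Its 5 probes were all fitted below 0, and 1 of the dimmer ones read -0.11, -0.67, -0.73 and -0.58, with a fit of -0.52 ± 0.13 that passed the looser rule (limma, unadjusted p = 0.00976). VPS37B, of the ESCRT-I complex, read 0.10, -0.25, -0.07 and 0.22, with a fit of -0.00040 ± 0.12. VPS33A, a subunit of the tethering complexes that feed lysosomes, was fitted at 0.20 ± 0.11.

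The prefix COP also takes 4 subunits of the COP9 signalosome, a nuclear and cytosolic complex that removes NEDD8 from ubiquitin ligases and is no part of vesicle traffic. By their brightest probe all 4 were fitted above 0, from 0.0042 to 0.12, with none past the looser rule. COPS6 read 0.25, -0.46, 0.14 and 0.08, and COPS4 read -0.08, 0.20, -0.04 and 0.05. They gave fits of 0.0042 ± 0.13 and 0.03 ± 0.10. The other probe of COPS6 was fitted at -0.04, whereas the other probes of COPS2, COPS4 and COPS5 were all above 0. With normexp parameters from all spots COPS4 was at -0.10.

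**Figure D4:**
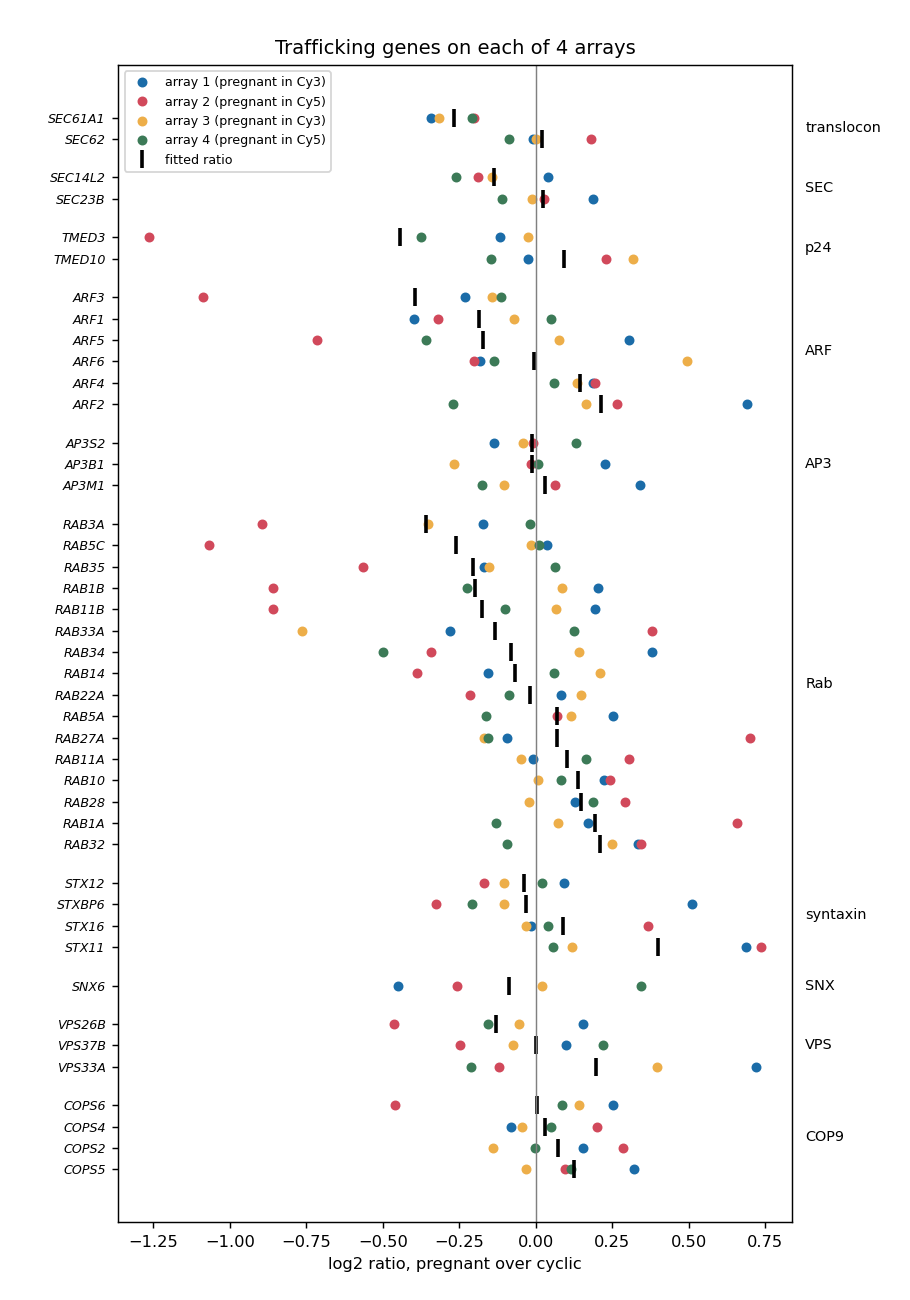
Log2 ratio of pregnant over cyclic (x axis) on each of 4 arrays (coloured points) and the fitted ratio (black bar) for the 43 tested genes (y axis), grouped by role and ordered by fitted ratio within each group. Of the 43 genes, 7 have all 4 points on 1 side of 0, and 7 have the array 2 point below -0.7.

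The share of members with 1 sign on every array was near that of the array as a whole. All 4 arrays had 1 sign for 7 of the 43 members (16.3%), beside 14.2% of all features. Below 0 throughout were SEC61A1, TMED3, ARF3 and RAB3A, 4 members against 7.51% of all features, and above 0 throughout were STX11, ARF4 and RAB10, 3 members against 6.71%. In no member did the 8 animals' intensities separate by group without overlap (0 of 43), the pairing by array set aside. The share of all features was not counted, so this is not read as a trait of these genes. The estimated dye effect was larger in size than the group difference for 25 members (58.1%), against 51.3% of all features.

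Array 2 carried most of the large single ratios. Of the 43 members, 7 lay below -0.7 there (16.3%, against 10.1% of all features on that array): TMED3, ARF3, RAB3A, RAB5C, RAB11B, RAB1B and ARF5. That bound was chosen after the values were seen. On arrays 1, 3 and 4 the same 7 genes lay between -0.38 and 0.30. The SD across members was 0.487 on array 2, against 0.275, 0.207 and 0.172 on arrays 1, 3 and 4. Over all features array 2 was also the widest, at 0.50, against 0.395, 0.339 and 0.326 on arrays 1, 3 and 4. Member medians were 0.10, -0.12, -0.02 and -0.09 on arrays 1 to 4.

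**Figure D5:**
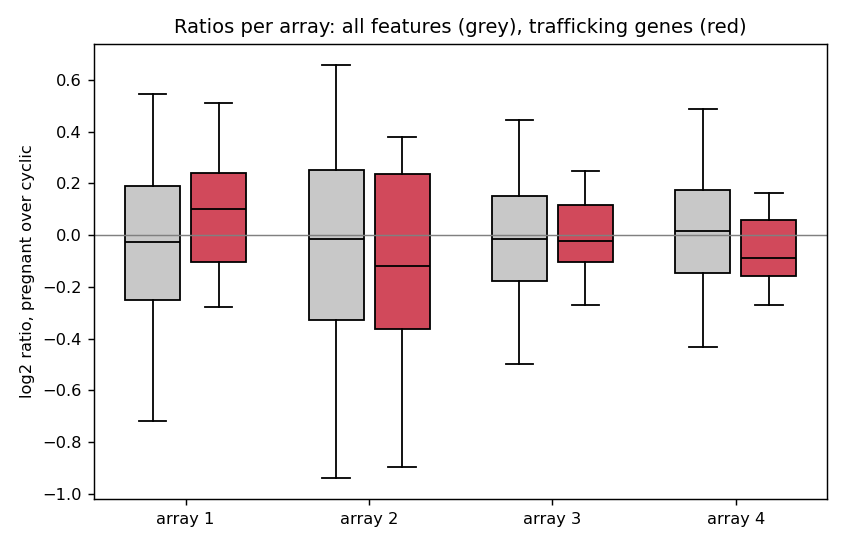
Log2 ratios of pregnant over cyclic (y axis) on each array (x axis), with grey boxes for all tested features and red boxes for the 43 trafficking genes; boxes span the quartiles with a line at the median, and whiskers run from the 5th to the 95th percentile. Array 2 has the widest spread in both, and the trafficking genes have their highest median on array 1, at 0.10, and their lowest on array 2, at -0.12.

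Counting every kept probe as a feature of its own gave 4 of 106 member probes past the looser rule (3.77%), against 7.86% of all kept probes. All 4 were lower in the pregnant glands: the SEC61A1 probe, 2 TMED3 probes and 1 VPS26B probe. Of 22 genes with more than 1 kept probe, 15 had all their probes on 1 side of 0, and 47 of 63 further probes shared the sign of the brightest one.

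Other genes of the secretory pathway were taken from a list of 106, of which 20 were named on the array and tested. Of these, 8 lay below 0 and 12 above, with a median of 0.02, where 52.8% of all features lay below 0. CHGA, the granule protein chromogranin A, was the 1 gene of 20 past the looser rule, beside 7.51% of all features, and was lower. It read -0.96, -0.91, -0.29 and -0.09, below 0 on every array and furthest on arrays 1 and 2, with a fit of -0.56 ± 0.19 (limma, unadjusted p = 0.0280, adjusted p = 0.624). It was also the 1 gene of the 20 at an unadjusted limma p under 0.05, beside 7.68% of all features, and 0 passed adjustment. Among those not called were CHGB, another granin, at -0.16 ± 0.10, NSF, the ATPase that recycles SNAREs, at -0.03 ± 0.11, and the COPII GTPases SAR1A and SAR1B at 0.0046 ± 0.11 and 0.05 ± 0.11.

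Between 50.4% and 60.4% of the spots in the pregnant channels and between 52.5% and 66.5% in the cyclic channels were well above background. All 7 anterior pituitary hormone genes of the marker list were tested and well above background in all 8 channels. Their ratios differed greatly between pairs, with TSHB between -4.20 and 4.48 and GH1 between -2.50 and 0.74. LHB, the beta subunit of luteinizing hormone, read -0.78, -0.60, -0.19 and -0.12, and passed the looser rule at -0.42 ± 0.15. Of the genes of the neighbouring lobes, OXT was fitted at -0.36 ± 0.16, and PCSK2 read 1.43, -0.55, -0.82 and 1.56. Fits of the tested stromal genes (3 of 4) lay between -0.44 and -0.08, and those of the endothelial genes (3 of 4) between -0.24 and 0.51. Their part in the ratios of the trafficking genes was not tested.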

How the data were processed

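Members and gene lists were chosen with earlier results of these data known. The deposited scanner files hold median foreground and background intensity per spot; per the file headers, the software was Agilent Feature Extraction, version 10.7.3.1. The authors' deposited value table holds log2 ratios and was used to check direction. Intensities were corrected by normexp (offset 50, parameters estimated without spots marked as outliers) and normalized by loess (span 0.3) in R 4.3.3 with limma 3.58.1. Data were read with data.table (1.17.8) and jsonlite (2.0.0). Control spots (1417 of 45220) had weight 0, and 26 to 63 outlier spots per array were left out. Probes were named by RefSeq accession from the names of the Sscrofa11.1 assembly. The brightest kept probe stood for a gene, and unnamed probes for themselves. The limma fit held the group and a dye effect for each gene, p-values were adjusted by Benjamini-Hochberg over 22278 features, and the fit was tested on simulated data. Named with array values were members of lowest p among those with 1 sign on 4 arrays (at most 14), the 2 brightest of each role group, RAB3A and RAB27A from a fixed exocytosis list, and the 4 of widest range; others are named in counts or by role, after their values were seen. Alternatives covered background, normalization, filter, dye, probe choice and each array left out.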

Additional observations from a re-analysis of the deposited data

Results flagged for a closer look

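In 4 of the 43 genes 1 of the 4 arrays stood apart, its gap to the nearest other array, as a share of the gene's whole range, being above Dixon's 95% critical value. Chance flags about 1 gene in 20 where all arrays have the same spread, which these arrays did not. The share of all features flagged was not counted, so the count is not read as a trait of these genes. ARF3 read -1.09 on array 2, against -0.23 to -0.12 on the others. RAB5C read -1.07 on array 2, against -0.02 to 0.04. RAB27A read 0.699 on array 2, against -0.17 to -0.10. ARF6 read 0.494 on array 3, against -0.20 to -0.14. Array 2 was thus the one apart in 3 of the 4 genes, in both directions. It was also the widest array over all features, with an SD of 0.50.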

How the results depend on the processing

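The count of members past the looser rule, 2, was 0 with the scanner software's processed signals, 1 with median centring, 3 with a normexp offset of 10, 4 with a single dye orientation and 4 with every probe as a feature, beside 8.05%, 6.04%, 8.17%, 8.20% and 7.86% of all features. It was also 2 with normexp parameters from all spots, TMED3 and ARF4, beside 2.79% of all features. With no dye term it was 2 as well, SEC61A1 and STX11, beside 5.96%. The count ran from 0 to 9 when 1 array was left out. It was 0 without array 1, 0 without array 2, 1 without array 3 and 9 without array 4 (7 lower, 2 higher), beside 3.44%, 3.46%, 9.24% and 12.5% of all features. Without array 4, array 2 alone had the pregnant animal in Cy5 and weighed as much as arrays 1 and 3 together. The count past adjustment was 0 under every alternative run, and the members' median stayed between -0.061 and 0.052. With a single dye orientation, ARF5 stood at 0.36, TMED3 at 0.37 and RAB34 at 0.34, on the other side of 0, because arrays 2 and 4 are then turned. SEC61A1 stood at -0.06. Group and dye cannot be told apart under that setting, so no dye effect was fitted in it. Under the other 9 alternatives that keep all arrays, SEC61A1 ran from -0.37 to -0.13 and passed the looser rule in 7, and TMED3 ran from -0.54 to -0.43 and passed in 6. Over all genes and alternatives, 570 values kept their side of the looser rule, 14 passed it newly and 13 no longer passed it. The other 3, given above, changed sign and passed the rule in 1 of the 2 fits compared. Regardless of the rule, the fitted ratio changed sign in 26 of the 43 genes with a single dye orientation and in 16 without array 2. It did so in 10 with normexp parameters from all spots, 8 without array 1 and 6 with the processed signals. Under each other alternative it did so in 4 or fewer. Median centring moved the median of all features to -0.06. The number of arrays, and for RAB33A and STXBP6 also signal near background, limits these values.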

Other observations

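Across the 43 members, ratios of arrays with the same dye orientation correlated at r = 0.40 (arrays 1 and 3) and 0.26 (arrays 2 and 4), and over all features at 0.12 and 0.32. The 4 pairs of opposite orientation were at 0.23 (arrays 1 and 2), -0.34 (arrays 1 and 4), 0.02 (arrays 2 and 3) and -0.23 (arrays 3 and 4) for the members, and at 0.22, -0.03, -0.24 and -0.02 over all features in the same order. These are correlations across genes, which are not independent replicates, and the 2 animals of an array share its slide position.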
